A study of Mus musculus with 18 samples.

Results

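The genes described here are 10 immediate early genes of naive CD4 T cells: the AP-1 subunits Fos, Fosb, Fosl2, Jun, Junb and Jund, the transcription factors Egr1 and Nr4a1, and Ier2 and Dusp1. They were taken by name from the 18193 genes with a probe set of their own, and every probe set that carries only their symbol was used. These were 13 of 45101 probe sets, 2 each for Fosl2, Jun and Jund and 1 for each other gene. The probe set with the highest mean stands for its gene and is called the lead probe set, the other the second. Of the 13, 12 passed the filter on dim probe sets. The second Jund probe set did not, with between 26.9 and 127.5 units on the 18 arrays, and was not tested.

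The series compared interleukin 6 (IL-6) and interleukin 27 (IL-27) in these cells with and without STAT3. Cells from spleen and lymph nodes of C57BL/6J mice were sorted as CD4+CD44-CD62L+CD25-. For 3 hours they received no cytokine (medium), IL-6 at 20 ng/ml or IL-27 at 20 ng/ml, and their RNA was hybridised to mouse 430 2.0 arrays of Affymetrix. The mice were wild type (WT) or carried the genotype Cd4-Cre_C57BL6-STAT3<tm1Dlv>, called STAT3-deficient below, in which the Cre recombinase is driven by Cd4 and acts in T cells, not in all cells of the mouse. Each of the 6 groups held 3 arrays, numbered 1 to 3 in the sample names and called biological triplicates by the series. Nothing says whether they came from separate mice or pools, so the p-values measure the spread between these samples. Age and sex are not stated for the mice.

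Immediate early genes are transcribed within minutes of a stimulus from factors already present in the cell, without new protein synthesis, and most of their RNAs are short-lived. AP-1 is a dimer of a Jun protein with a Fos protein or another Jun protein, and its make-up decides which genes it activates. In T cells, Fos, Egr1 and Nr4a1 follow the antigen receptor through the MAP kinase and calcium pathways, while Dusp1 encodes a phosphatase that switches MAP kinases off. IL-6 and IL-27 share the receptor chain gp130 and signal through JAK kinases to STAT3, and Junb is a classical IL-6 response gene.

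The deposited signal is linear and was scaled by the authors to the same trimmed mean on every array. The median signal lay between 104 and 127 units on the WT arrays and between 132 and 190.4 on the STAT3-deficient arrays and the precision is limited by the 3 arrays per group. The lead probe set of Stat3 gave 2698 ± 374 units (SD, n = 3) in WT and 1166 ± 86.0 (SD, n = 3) in STAT3-deficient cells in medium, a log2 difference of -1.11 ± 0.12 (SE, limma, adjusted p = 1.21e-05, and 0.0834 where the Stat3 probe sets are averaged). Of its other probe sets, 1 stood at -0.91 ± 0.13 and the others at 0.81 ± 0.27 (adjusted p = 0.0344) and 0.12 ± 0.20. The lead probe set still rose with IL-6 in the cells labelled STAT3-deficient, by 1.01 ± 0.12 (adjusted p = 2.89e-05). Whether these probes lie inside or outside the deletion could not be read from the labels or files. Markers of T cells were abundant on all arrays, 10 of 12 listed having a probe set, with a summed signal between 64708 and 102030 units, and none was at 0. With IL-6 in WT cells 6 of the 10 tested T cell markers and 5 of 6 naive T cell markers fell and 0 rose, and in STAT3-deficient cells 1 and 0 fell (4 and 1 at an unadjusted p under 0.05 in limma). With IL-27, 4 and 4 fell in WT cells, and 3 and 1 in STAT3-deficient cells (5 and 6 at an unadjusted p under 0.05), and 0 rose. Of all probe sets 3.22% were called lower with IL-6 and 1.06% with IL-27 in WT cells. In STAT3-deficient cells these shares were 0.0968% and 0.983%. The part of this in the results below was not tested. Cd3d, a chain of the T cell receptor complex, lay between 17386 and 35870 units and Ccr7, a homing receptor of naive T cells, between 15448 and 24387, while Cd44 and Il2ra, low on sorted naive cells, reached at most 463 and 235. Cd69, an early activation marker, lay between 1542 and 7927. The STAT3-deficient arrays numbered 3 stood apart in the genes described here, so results that rest on them are also given without them. Since these arrays were chosen on the values of the same genes, calls gained by leaving them out are a description and not a test.

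The RefSeq promoter table (GRCm38.p6) held 8 of the 10 genes and did not list Egr1 and Ier2. The 250 bases before the start site are shown for Junb and Jund, which rose together with IL-6 in WT cells, and for Fos and Nr4a1, which were among the most variable between arrays and varied together. Each is written 5′ to 3′ on the strand of its gene. Capitals mark the letters TGACG, the core of the cyclic AMP response element, or CGTCA, the same letters on the other strand. Junb is at chr8:84978749-84978998 (minus strand), Jund at chr8:70697489-70697738 (plus strand), Fos at chr12:85473640-85473889 (plus strand) and Nr4a1 at chr15:101266596-101266845 (plus strand).
Junb: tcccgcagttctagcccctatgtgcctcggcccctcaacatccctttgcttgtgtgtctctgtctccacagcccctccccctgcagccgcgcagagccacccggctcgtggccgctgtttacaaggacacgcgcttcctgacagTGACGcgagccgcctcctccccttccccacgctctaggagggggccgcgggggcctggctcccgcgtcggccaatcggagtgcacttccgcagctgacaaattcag
Jund: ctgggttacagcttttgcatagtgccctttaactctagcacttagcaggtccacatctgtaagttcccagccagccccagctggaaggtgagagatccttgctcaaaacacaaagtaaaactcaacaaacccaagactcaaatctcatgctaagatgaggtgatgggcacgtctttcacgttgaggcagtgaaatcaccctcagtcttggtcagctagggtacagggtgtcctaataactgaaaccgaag
Fos: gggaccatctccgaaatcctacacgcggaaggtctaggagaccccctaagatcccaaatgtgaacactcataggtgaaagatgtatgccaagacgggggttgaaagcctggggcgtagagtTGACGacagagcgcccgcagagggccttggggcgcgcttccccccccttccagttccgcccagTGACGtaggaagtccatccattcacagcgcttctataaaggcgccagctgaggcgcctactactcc
Nr4a1: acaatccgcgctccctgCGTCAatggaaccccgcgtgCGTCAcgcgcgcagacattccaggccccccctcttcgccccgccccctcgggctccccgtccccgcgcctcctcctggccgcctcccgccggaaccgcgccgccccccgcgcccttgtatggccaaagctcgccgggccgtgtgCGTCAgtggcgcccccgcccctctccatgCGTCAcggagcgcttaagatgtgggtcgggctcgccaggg
TGACG, chosen after the sequences were seen, was found on either strand in 5 of the 8 promoters, 2 matches in Fos, 4 in Nr4a1, 1 each in Fosb and Junb and 3 in Dusp1, and in none of Jund, Jun and Fosl2. It is present in 17.8% of the 32851 promoters of this length. The full element TGACGTCA, of which TGACG is a part, was found in Dusp1 alone, against 1.55% of all promoters. No promoter of the 8 held the AP-1 site TGANTCA (6.75% of all), the STAT site TTCNNNGAA (7.02%) or the CArG box bound by SRF (1.47%) on either strand. A match is a description of these letters in this window and not a binding site, and elements further from the start site were not searched.

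IL-6 raised Junb, Jund and Fosl2 in WT cells and no other of the 10 genes passed the test there. Changes are log2 differences of quantile-normalised signal plus 32 with the standard error (SE) of a limma model over all 18 arrays, and a call is a two-sided adjusted p (Benjamini-Hochberg over 26860 probe sets) under 0.05. So 3 of 10 genes were called higher and 0 lower, where 6.19% of all probe sets were called, 2.97% higher and 3.22% lower. The median change of the 10 genes was 0.26, against -0.01 over all probe sets. The arrays with IL-6 and those in medium did not overlap for 6 of the 10 genes and for 23.1% of all probe sets.

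Junb encodes the AP-1 subunit JunB, which can restrain c-Jun and takes part in T helper differentiation. On the WT arrays numbered 1, 2 and 3 its signal was 2212, 2194 and 2001 units in medium, 5404, 6475 and 5881 with IL-6, and 3256, 3319 and 2947 with IL-27. All IL-6 arrays lay above all IL-27 arrays, and these above all medium arrays. On the STAT3-deficient arrays the signal was 1768, 2182 and 2753 in medium, 2534, 2275 and 2880 with IL-6, and 2360, 2560 and 2705 with IL-27, and the groups overlapped. The change with IL-6 in WT cells was 1.40 ± 0.13 (SE, 2.65-fold, adjusted p = 6.37e-07, limma) and stayed called under every alternative, each array left out in turn included. In STAT3-deficient cells it was 0.16 ± 0.13 (SE, adjusted p = 0.876), with a 95% interval from -0.12 to 0.44. The interaction, the IL-6 effect without STAT3 minus that in WT cells, was -1.24 ± 0.19 (SE, adjusted p = 0.000702, limma), and it was -1.18 (adjusted p = 0.000680) when the STAT3-deficient arrays numbered 3 were left out. Over all alternatives that adjusted p lay between 6.04e-05 and 0.0396.

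IL-27 raised Junb less than IL-6 did. The change in WT cells was 0.55 ± 0.13 (SE, 1.47-fold, adjusted p = 0.0220, limma), and IL-27 against IL-6 gave -0.85 ± 0.13 (SE, adjusted p = 0.000625). The call for IL-27 against medium was lost when either the WT medium array 1, 2 or 3 or the WT IL-27 array 1 or 2 was left out, with adjusted p between 0.0553 and 0.108, and with median centring (adjusted p = 0.199) or no variance trend (0.0633). Junb was 1 of 10 genes called with IL-27 in WT cells, where 3.05% of all probe sets were called (1.98% higher, 1.06% lower), and the groups did not overlap for 5 of the 10 genes and 19.4% of all probe sets. In STAT3-deficient cells the change was 0.15 ± 0.13 (SE, adjusted p = 0.700), and the difference between genotypes did not pass the test for any of the 10 genes with IL-27 (0.00745% of all probe sets called, 0.00372% in each direction, and 1 of 10 genes at an unadjusted p under 0.05).

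Jund encodes JunD, the subunit most present in resting cells. Its lead probe set read 4973, 5004 and 5568 units on the WT medium arrays, 8625, 9636 and 9738 with IL-6, and 6211, 6699 and 6118 with IL-27. The WT IL-6 arrays were above all other arrays of the series for this probe set, and the spread within the groups was small. In STAT3-deficient cells it read 6461, 5676 and 6890 in medium, 6708, 6395 and 7519 with IL-6, and 7547, 6998 and 6998 with IL-27. IL-6 changed Jund by 0.82 ± 0.09 (SE, 1.76-fold, adjusted p = 7.74e-06, limma) in WT and by 0.02 ± 0.09 (SE, adjusted p = 0.987, 95% interval from -0.18 to 0.22) in STAT3-deficient cells. The difference between these effects was -0.80 ± 0.13 (SE, adjusted p = 0.00186, limma). It was -0.81 (adjusted p = 0.00626) with the STAT3-deficient arrays numbered 3 left out. Under median centring it was -0.51 and not called (adjusted p = 0.270, the highest over the alternatives). Junb and Jund were the 2 of 10 genes called lower in this comparison, where 2.2% of all probe sets were called, 0.957% lower and 1.24% higher. With IL-27 the WT change of Jund was 0.26 ± 0.09 (SE, adjusted p = 0.181), below the IL-6 change by -0.55 ± 0.09 (SE, adjusted p = 0.00151).

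Fosl2 encodes Fra-2, a Fos protein without the strong activation domain of c-Fos. Its lead probe set read 2496, 2533 and 2787 units in WT medium, 3857, 3823 and 4287 with IL-6, and 2642, 2655 and 3011 with IL-27. All IL-6 arrays were above all others of WT cells, and those with IL-27 overlapped medium. In STAT3-deficient cells the values were 2313, 2638 and 3226 in medium, 3404, 3156 and 4001 with IL-6, and 2435, 3145 and 3270 with IL-27, with the IL-6 and medium groups overlapping. The change with IL-6 in WT cells was 0.59 ± 0.13 (SE, 1.51-fold, adjusted p = 0.00617, limma). The call was lost with median centring (adjusted p = 0.0565) and with the mean of both probe sets (0.114). The second probe set stood at 0.51 ± 0.31 (SE, adjusted p = 0.484). In STAT3-deficient cells the lead probe set gave 0.31 ± 0.13 (SE, adjusted p = 0.528), and the difference between genotypes was -0.28 ± 0.18 (SE, adjusted p = 0.628), with a 95% interval from -0.67 to 0.10.

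The IL-27 effect on Fosl2 in WT cells was 0.09 ± 0.13 (SE, adjusted p = 0.860). IL-27 against IL-6 gave -0.50 ± 0.13 (SE, adjusted p = 0.0444), so that Junb, Jund and Fosl2 were the 3 of 10 genes that were lower (0 were higher), where 2.32% of all probe sets were called, 1.04% lower and 1.28% higher. For Fosl2 this rests on a narrow margin. The call was lost when any 1 of the 9 WT arrays was left out, or any STAT3-deficient array numbered 2, with adjusted p between 0.0515 and 0.215. It was also lost with 4 other alternatives, with adjusted p up to 0.633.

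**Figure D1:**
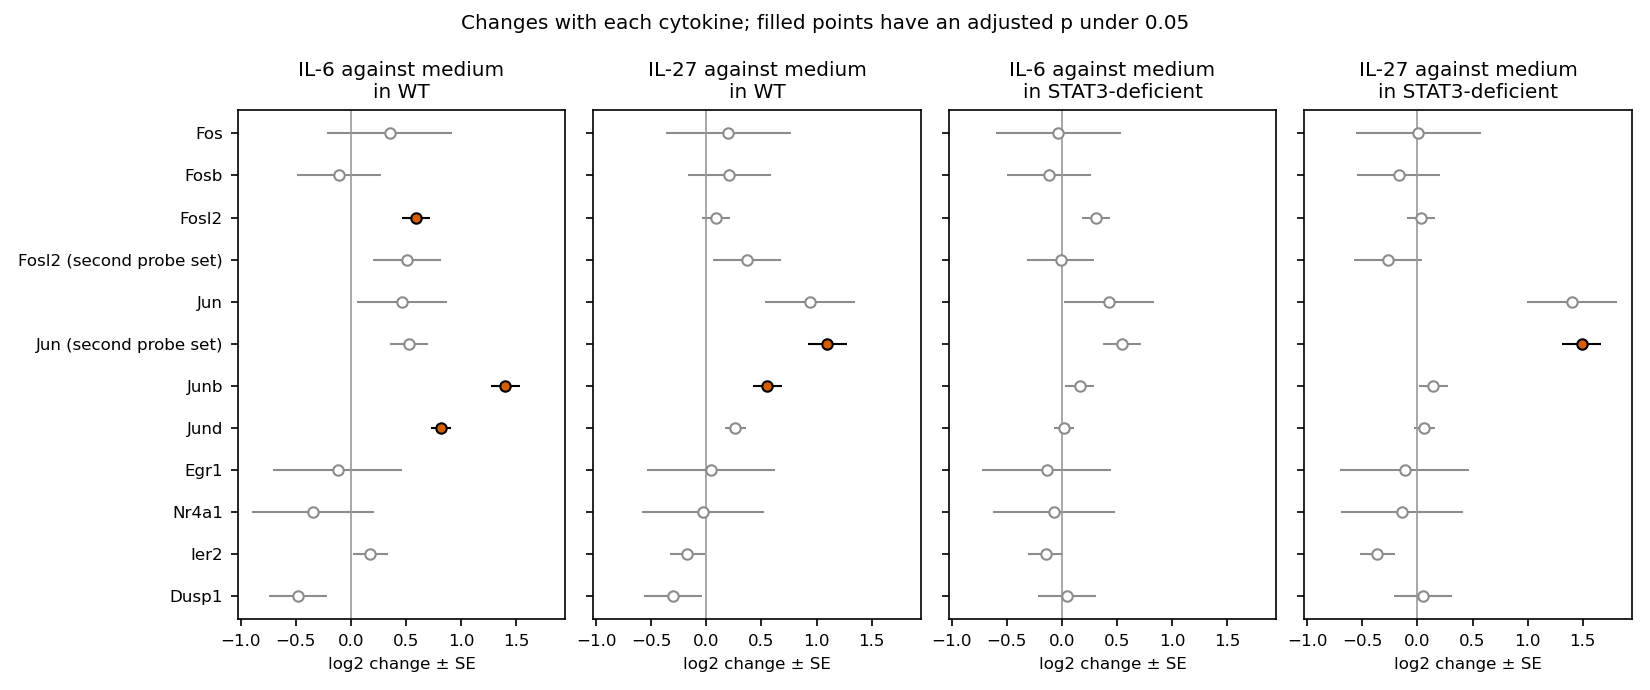
Log2 change ± SE of each probe set with IL-6 or IL-27 against medium in WT and in STAT3-deficient cells (n = 3 arrays per group), filled where the adjusted p is under 0.05. Junb, Jund and the lead Fosl2 probe set are filled for IL-6 in WT cells, Junb also for IL-27 in WT cells, and the second Jun probe set for IL-27 in both genotypes. The bars of Fos, Egr1 and Nr4a1, with SE between 0.55 and 0.58, are the longest.

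Jun, the gene of c-Jun, rose with IL-27 in both genotypes at its second probe set, while its lead probe set did not pass the test. The second probe set read 245, 264 and 174 units in WT medium, 369, 390 and 296 with IL-6, and 546, 640 and 481 with IL-27. In STAT3-deficient cells it read 202, 230 and 259 in medium, 267, 296 and 336 with IL-6, and 595, 591 and 540 with IL-27. The IL-27 arrays were above all other arrays of their genotype, and IL-6 arrays lay between without overlap. IL-27 changed this probe set by 1.10 ± 0.17 (SE, 2.14-fold, adjusted p = 0.000513, limma) in WT and by 1.49 ± 0.17 (SE, 2.81-fold, adjusted p = 1.09e-05) in STAT3-deficient cells. Both calls held in the 33 of 35 alternative settings that give this probe set a value, each array left out in turn included, and the second was 1.66 (adjusted p = 7.49e-05) without the STAT3-deficient arrays numbered 3. The IL-6 changes of 0.52 ± 0.17 (SE, adjusted p = 0.0913) in WT and 0.55 ± 0.17 (SE, adjusted p = 0.227) in STAT3-deficient cells did not pass.

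IL-27 exceeded IL-6 at this probe set by 0.94 ± 0.17 (SE, adjusted p = 0.0201) in STAT3-deficient cells and by 0.57 ± 0.17 (SE, adjusted p = 0.115) in WT cells. The first was not called without the STAT3-deficient IL-6 array 1 or 2 or the IL-27 array 1 or 2 (adjusted p between 0.0685 and 0.145), with median centring (0.182) or with only the arrays compared (0.164). It was the only 1 of the 12 probe sets called there, where 0.205% of all probe sets were called, 0.197% higher and 0.00745% lower.

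The lead probe set of Jun pointed the same way with a far larger spread. It read 892, 1292 and 1283 units in WT medium, 1420, 2003 and 1419 with IL-6, and 2034, 2256 and 2486 with IL-27. In STAT3-deficient cells it read 483, 655 and 1528 in medium, 638, 764 and 2204 with IL-6, and 1391, 2246 and 2621 with IL-27. The WT groups with IL-27 and in medium did not overlap, whereas in STAT3-deficient cells the medium array numbered 3 lay above the IL-27 array numbered 1. The changes with IL-27 were 0.94 ± 0.41 (SE, adjusted p = 0.328) in WT and 1.40 ± 0.41 (SE, adjusted p = 0.0704) in STAT3-deficient cells. Without the 3 STAT3-deficient arrays numbered 3 both were called, at 0.94 (adjusted p = 0.00980) and 1.70 (adjusted p = 0.000330). The model shares 1 estimate of the spread over all groups. The arrays left out had been chosen for standing apart in these genes, so a smaller spread without them was fixed by that choice. Calls gained in this way are a description and not a test. In STAT3-deficient cells the lead probe set was also called without the medium array 3 (1.91, adjusted p = 0.00597), the IL-6 array 1 (1.40, adjusted p = 0.0468) or the IL-6 array 3 (1.40, adjusted p = 0.0182). Counted by lead probe sets, 0 of 10 genes were called in STAT3-deficient cells with IL-27, where 3.61% of all probe sets were called, 2.63% higher and 0.983% lower (2 of 10 genes at an unadjusted p under 0.05). With IL-6 it was 0 of 10 as well, against 1.43% of all probe sets, 1.33% higher and 0.0968% lower (1 of 10 at an unadjusted p under 0.05).

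**Figure D2:**
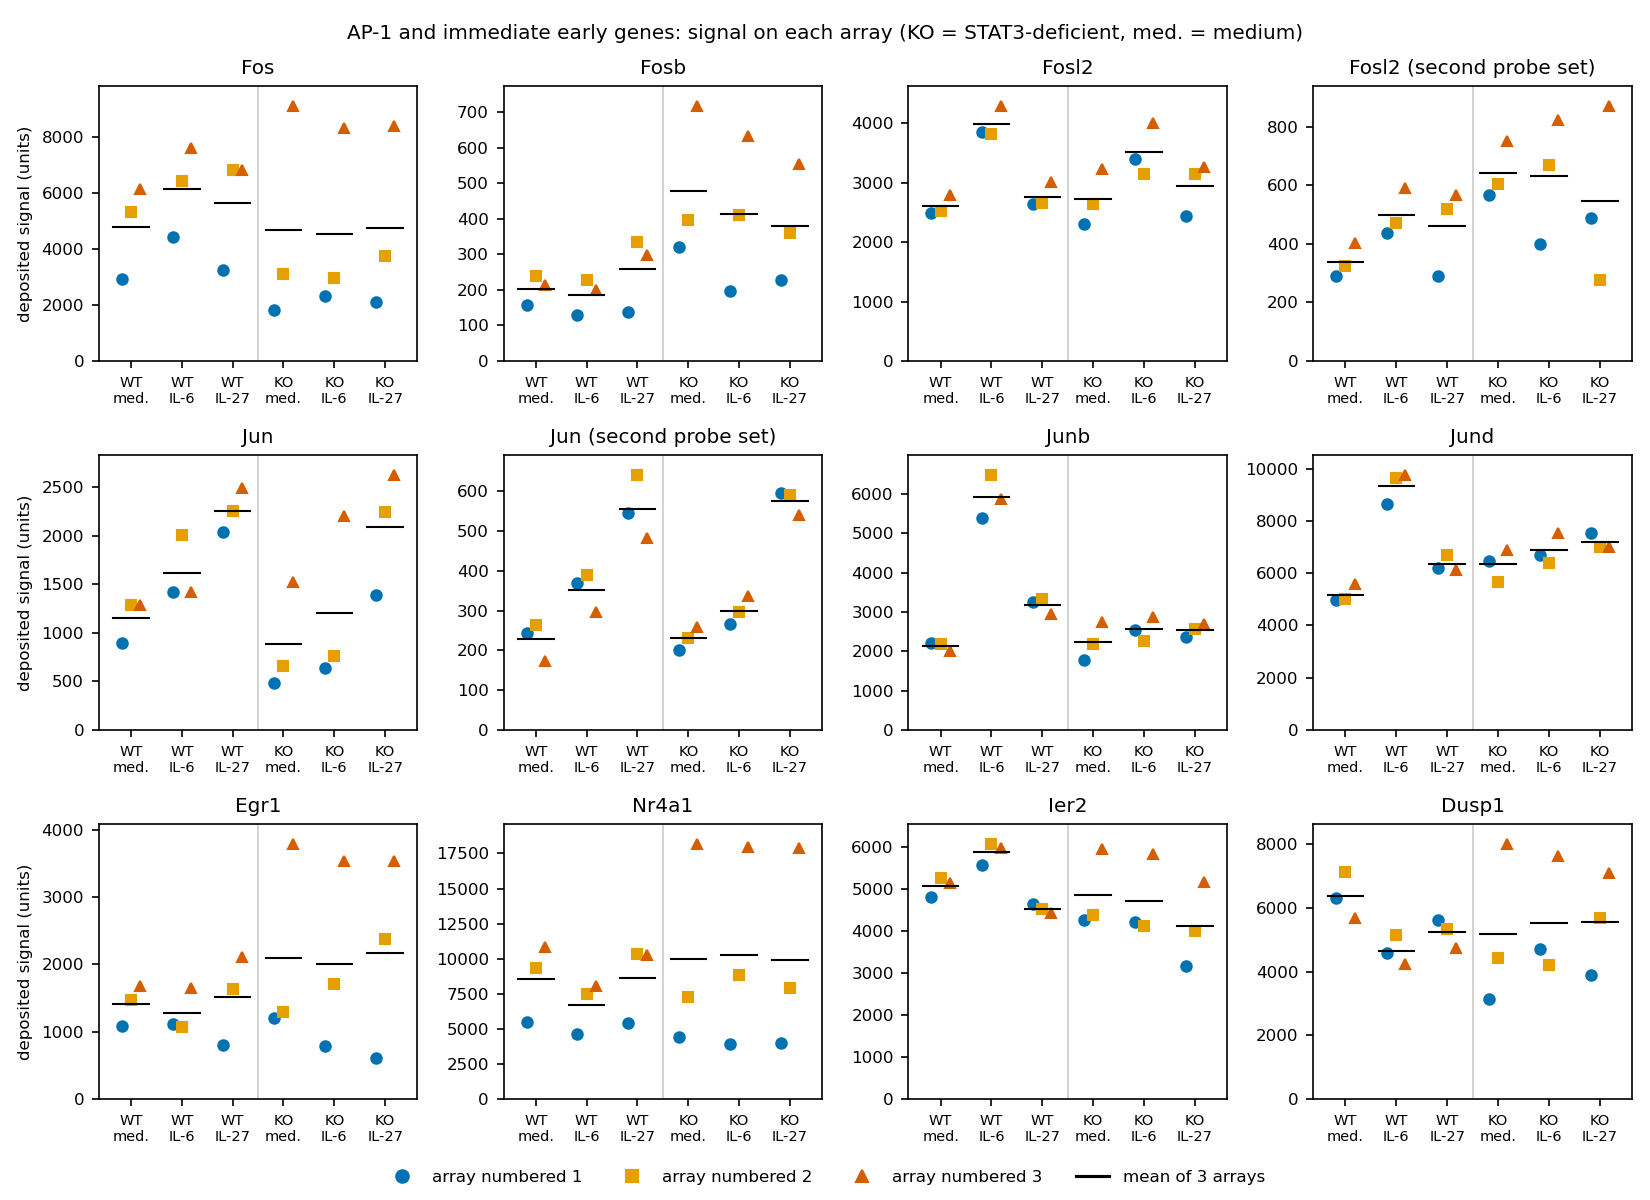
Deposited signal in units, on a linear axis from 0, of the 12 tested probe sets in the 6 groups (KO stands for STAT3-deficient). Each marker is 1 array, its shape and colour give the number of the array, and the bar is the mean of 3. Junb and Jund stand out in WT cells with IL-6, and the STAT3-deficient arrays numbered 3 are the highest of their groups in all panels except, with IL-27, Jund and the second Jun probe set.

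Fos, the gene of c-Fos, changed less between treatments than between arrays of a treatment. Its signal was 2943, 5320 and 6155 units in WT medium, 4423, 6434 and 7630 with IL-6, and 3262, 6822 and 6828 with IL-27. In STAT3-deficient cells it was 1839, 3097 and 9113 in medium, 2310, 2985 and 8344 with IL-6, and 2096, 3770 and 8402 with IL-27. The array numbered 1 was the lowest and the array numbered 3 the highest in all 6 groups, and all groups overlapped. The highest array was 4.96 times the lowest in STAT3-deficient medium and 2.09 times in WT medium. IL-6 gave 0.35 ± 0.56 (SE, adjusted p = 0.861) and IL-27 gave 0.20 ± 0.56 (SE, adjusted p = 0.939) in WT cells, while in STAT3-deficient cells the changes were -0.03 and 0.01 with the same SE. The 95% interval for IL-6 in WT cells ran from -0.83 to 1.54. Within each array number of WT cells, Fos read higher with IL-6 than in medium. With that number as a replicate block within genotype the IL-6 change was called (adjusted p = 0.0451, limma), though what the number marks is not stated.

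Nr4a1 encodes the orphan nuclear receptor Nur77, widely used as a reporter of antigen receptor signalling. It read 5487, 9366 and 10849 units in WT medium, 4656, 7464 and 8067 with IL-6, and 5392, 10328 and 10240 with IL-27. In STAT3-deficient cells it read 4404, 7279 and 18149 in medium, 3928, 8862 and 17955 with IL-6, and 4014, 7884 and 17909 with IL-27. The 3 STAT3-deficient arrays with the same number were close to each other across treatments, and arrays with different numbers were far apart. The IL-6 change in WT cells was -0.34 ± 0.55 (SE, adjusted p = 0.865). Within each array number of WT cells, Nr4a1 read lower with IL-6 than in medium. With that number as a replicate block within genotype the adjusted p was 0.0336 (limma).

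Egr1, a zinc finger transcription factor, behaved alike, with 1088, 1464 and 1679 units in WT medium and 1208, 1296 and 3782 in STAT3-deficient medium. With IL-6 it read 1116, 1070 and 1653 in WT and 783, 1702 and 3538 in STAT3-deficient cells, and with IL-27 809, 1635 and 2116 and then 604, 2374 and 3531. The array numbered 3 was the highest in all 6 groups. The changes with either cytokine lay between -0.14 and 0.04 in both genotypes, with SE 0.58. Fosb, the gene of another Fos protein, ranged from 130 to 335 units in WT and from 196 to 716 in STAT3-deficient cells, with the array numbered 1 lowest in all 6 groups. Its changes with either cytokine lay between -0.17 and 0.21, with SE 0.38.

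Dusp1 and Ier2 differed between the genotypes in how they varied. Dusp1 read 6305, 7141 and 5698 units in WT medium, 4593, 5138 and 4239 with IL-6, and 5629, 5355 and 4738 with IL-27. The WT groups with IL-6 and in medium did not overlap, but the change of -0.48 ± 0.26 (SE, adjusted p = 0.421) did not pass. Without the 3 STAT3-deficient arrays numbered 3 the same value had an adjusted p of 0.0417. Those arrays were chosen for standing apart in these genes, so this is a description and not a test. With the array number as a replicate block within genotype the adjusted p was 0.0117 (limma). On the STAT3-deficient arrays Dusp1 ranged from 3129 to 8000. Ier2, an early response gene for a nuclear protein, lay between 4426 and 6067 units on the WT arrays and between 3170 and 5951 on the others. Its WT groups did not overlap, at 4426 to 4639 units with IL-27, 4806 to 5257 in medium and 5578 to 6067 with IL-6. IL-27 against IL-6 in WT cells gave -0.35 for Ier2, which was not called. Without the STAT3-deficient arrays numbered 3 the same value had an adjusted p of 0.0387 (limma), with the same limit as for Dusp1. In STAT3-deficient cells IL-27 gave -0.37 ± 0.16 (SE, adjusted p = 0.289) for Ier2, and -0.57 (adjusted p = 0.0272) without the IL-27 array numbered 3.

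**Figure D3:**
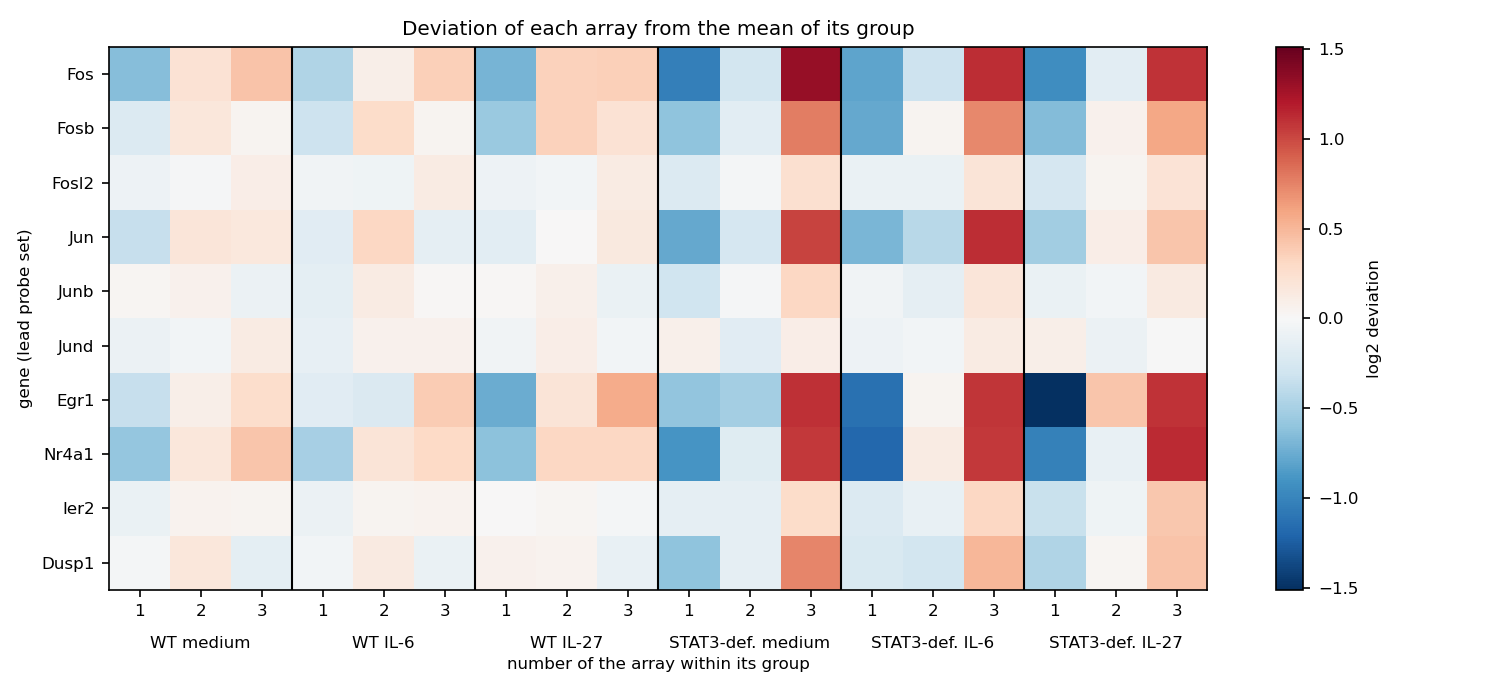
Deviation of each array from the mean of its group, in log2 of the normalised signal, for the lead probe set of each gene (rows) on the 18 arrays (columns, numbered within their group). Blue is below and red above the group mean. Fos, Egr1 and Nr4a1 are blue on the arrays numbered 1 and dark red on the STAT3-deficient arrays numbered 3, while Jund and the WT arrays of Ier2 are near white.

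The spread was measured as the residual SD about the 6 group means (log2, 12 degrees of freedom) and is a description, since the genes share each array. It was 0.88 for Egr1, 0.85 for Fos, 0.83 for Nr4a1, 0.61 for the lead Jun probe set, 0.55 for Fosb and 0.39 for Dusp1. It was 0.22 for Ier2, 0.17 for Junb, 0.16 for Fosl2 and 0.11 for Jund. The median was 0.47 for the 10 genes and 0.25 for all probe sets, and 5 of 10 genes lay above the 90th percentile, where 10% of all lie. Among probe sets of like mean level (10 bins), where bright probe sets vary less, Fos lay at the 99.9th percentile and Dusp1 at the 97.1st, Fosl2 at the 68.5th and Jund at the 34.1st. The pair of Jun probe sets stood at 0.61 and 0.20, the 95.8th and 33.3rd percentiles of all, so probe sets of 1 gene differed in spread. Which stretch of the Jun transcript each of them reads was not analysed here.

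**Figure D4:**
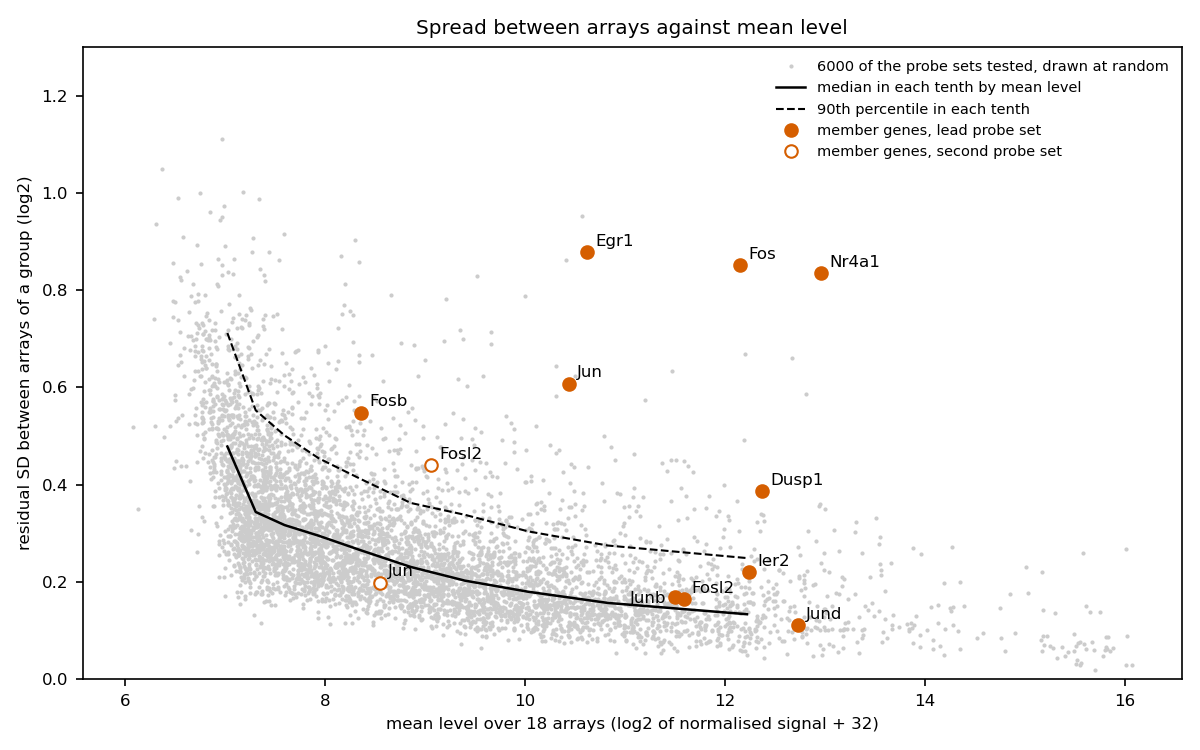
Residual SD between arrays of a group against the mean level over 18 arrays, both in log2, for the probe sets of the 10 genes (orange, open for second probe sets) and 6000 probe sets drawn at random (grey), with the median and the 90th percentile in each of 10 bins by mean. Egr1, Fos, Nr4a1, Jun, Fosb and Dusp1 lie above the 90th percentile line and so does the second Fosl2 probe set, while Jund and the second Jun probe set lie below the median.

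The spread was larger in STAT3-deficient than in WT cells for the lead probe set of all 10 genes, but not for the second Jun probe set, where the ratio was 0.814. The ratio of the pooled SD had a median of 2.11 over the 10 genes and 1.16 over all probe sets, of which 61% had a higher SD in STAT3-deficient cells. Among the lead probe sets it was highest for Ier2 at 4.57 and Dusp1 at 4.21, and lowest for Jund at 1.13. The mean deviation of the 10 genes on the STAT3-deficient arrays numbered 3 was 0.69 in medium, 0.64 with IL-6 and 0.55 with IL-27, and on those numbered 1 it was -0.51, -0.52 and -0.57. On the WT arrays numbered 1 it was -0.24, -0.21 and -0.28, while those numbered 2 and 3 lay between 0.10 and 0.14.

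On the normalised scale, for some of the 10 genes the array of the same number was the lowest or highest of its group in every treatment. The array numbered 1 was the lowest in all 6 groups for Fos, Fosb, Jun and Nr4a1, 4 of 10 genes, which held for 1.07% of all probe sets. The array numbered 3 was the highest in all 6 groups for Fos, Fosl2 and Egr1, 3 of 10 genes, against 0.450% of all. In the 3 STAT3-deficient groups it was the highest for 9 of 10 genes, all but Jund, against 5.76% of all. In the 3 WT groups the array numbered 1 was the lowest for 5 of 10 genes, against 7.90% of all.

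Some other genes of the same kind varied with them. Of 33 tested immediate early genes outside the 10, 12 had the array numbered 1 lowest in all 6 groups and 19 had the array numbered 3 highest in all 3 STAT3-deficient groups. The median residual SD of the 33 was 0.35. Nfkbia (0.08), Zfp36l2 (0.09), Irf1 (0.11) and Klf6 (0.12) varied little and lacked the array numbered 1 as lowest in all 6 groups. High residual SDs and the lowest value on the array numbered 1 in all 6 groups were seen in Egr3 and Egr2, relatives of Egr1 with SDs of 0.95 and 0.86, Nr4a2 and Nr4a3, relatives of Nr4a1, with 0.82 and 0.67, Cd69 with 0.79 and Myc, with 0.75. Among 18 genes induced by the T cell receptor, of which these 6 are members too, the counts were 8, these 6 included, and 10, among 21 heat shock and dissociation stress genes 3 and 9, and among 12 MAP kinase phosphatases and feedback genes 3 and 6. They were 1 and 2 of 18 for the MAP kinase cascade, 2 and 1 of 10 for T cell markers, and 0 and 0 for the 12 B cell and the 14 myeloid markers. The 5 genes outside the 10 whose deviations over the 18 arrays were most like the mean deviation of the 10 were Egr2 (Pearson 0.986, Spearman 0.948), Tsc22d2 (0.981 and 0.930), Nr4a2 (0.976 and 0.936), Myc (0.971 and 0.961) and Slc16a1 (0.968 and 0.934). These correlations are a description over 18 arrays that all genes share, so they carry no p.

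Markers of other cells moved with the array numbers too. The summed signal of 15 B cell markers lay between 1211 and 1680 units on the WT arrays, and on the STAT3-deficient arrays it was 7463, 7250 and 7469 on those numbered 1 (medium, IL-6, IL-27), 6404, 6374 and 5591 on those numbered 2, and 4337, 3738 and 4466 on those numbered 3. It was thus lowest within the STAT3-deficient groups where the immediate early genes were highest, though far above WT. The sum of 17 myeloid markers ranged from 9626 to 17372 in WT and from 11173 to 21781 in STAT3-deficient cells, and was also lowest on the arrays numbered 3 in each STAT3-deficient group. Most of it was the signal of Ctss, from 89.2 to 94.2% of the sum in WT and from 54.3 to 75.1% in STAT3-deficient cells. Without Ctss the other 16 summed to between 840 and 1351 units in WT and between 3640 and 8910 in STAT3-deficient cells, again lowest on the arrays numbered 3. The sum of 3 red blood cell markers was 828, 586 and 663 units on the STAT3-deficient arrays numbered 3 against 195 to 297 on the others of that genotype and 75.1 to 189 in WT. No marker was at 0. The part of these cells in the results was not tested, and in such bulk samples fewer cells of a type and less RNA per cell cannot be told apart.

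STAT3-deficient and WT cells were compared directly as well, with 24.2% of all probe sets called in medium (11.4% higher, 12.8% lower), 20.3% with IL-6 (10.1% and 10.3%) and 14.7% with IL-27 (7.55% and 7.13%). In medium 1 of 10 genes was called, Jund, at 0.52 ± 0.09 (SE, adjusted p = 0.000887, limma), but with median centring in place of quantile normalisation, which moves the median of all probe sets to -0.36, Jund stood at -0.25. With IL-6, Junb was lower in STAT3-deficient cells by -1.06 ± 0.13 (SE, adjusted p = 1.50e-05), and at -0.24 (adjusted p = 0.705) with a covariate made of B cell and myeloid markers, whose B cell part does not overlap between genotypes. Jund was lower with IL-6 by -0.28 ± 0.09 (SE, adjusted p = 0.0422), at 0.14 with that covariate, and higher with IL-27 by 0.32 ± 0.09 (SE, adjusted p = 0.0288), at -0.12 with median centring. The IL-6 call of Jund was lost without the WT medium array 2, the WT IL-6 array 2 or 3 or the STAT3-deficient IL-6 array 1 or 2 (adjusted p from 0.0510 to 0.135). The IL-27 call was lost without the WT IL-27 array 1 or 3 or the STAT3-deficient IL-27 array 1 or 3 (adjusted p from 0.0574 to 0.106), and without all 3 STAT3-deficient arrays numbered 3 (0.0523). Shares of 2 of 10 with IL-6 and 1 of 10 with IL-27 were near or below those of all probe sets.

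Over all conditions, where 45.5% of all probe sets were called (22.5% higher, 22.9% lower), Junb (-0.36 ± 0.08), Jund (0.19 ± 0.05) and Fosb (0.60 ± 0.22, SE, adjusted p = 0.0333, limma) were called. With median centring Jund was called in the other direction, at -0.38 (adjusted p = 0.000539, limma). On the deposited scaling Jund stood at 0.01 (adjusted p = 0.904). Fosb rests on the STAT3-deficient arrays numbered 3, without which it stood at 0.25 (adjusted p = 0.279). Its call was also lost without any single one of them, without the array numbered 1 of any WT group, or without the STAT3-deficient IL-6 or IL-27 array 2 (adjusted p from 0.0515 to 0.0769). Jund stood at 0.15 (adjusted p = 0.0526) without the STAT3-deficient arrays numbered 3, and Junb at 0.43 with the marker covariate. The second Jun probe set was called too, at -0.26 ± 0.10 (SE, adjusted p = 0.0393), and the call was lost when any of 12 arrays was left out (adjusted p from 0.0512 to 0.0828). On the deposited scaling this probe set stood at -0.04 (adjusted p = 0.724, limma). With the 3 STAT3-deficient arrays numbered 3 left out, Fos, the lead Jun probe set and Ier2 were lower in STAT3-deficient cells, at -0.88 (adjusted p = 0.00350), -0.84 (adjusted p = 9.02e-05) and -0.19 (adjusted p = 0.0105). Those arrays were singled out for high values of these genes, and leaving them out lowers the means of 1 genotype only. These values are therefore no test of a difference between genotypes. With all arrays Fos and Jun were -0.29 ± 0.33 (SE, adjusted p = 0.488) and -0.41 ± 0.24 (SE, adjusted p = 0.166).

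The genes around the 10 in these pathways moved with IL-6 in WT cells in both directions. The counts stand beside 6.19% of all probe sets called, 2.97% higher and 3.22% lower. Some are near that share, and no list was tested as a set. Of 13 other AP-1 and ATF genes 2 rose and 0 fell, Batf, an AP-1 partner of T helper differentiation, by 1.72 ± 0.14 (SE, adjusted p = 1.07e-07, limma) and Crem, a cyclic AMP response modulator, by 0.93 ± 0.14. Of the 33 other immediate early genes 6 rose and 4 fell, with the largest changes in Zfp36, an RNA decay factor, at 1.62 ± 0.27, the kinase gene Sgk1 at 1.24 ± 0.29, Csrnp1 at 1.11 ± 0.30 and Irf1, the interferon regulatory factor, at 1.03 ± 0.09. Of 12 MAP kinase phosphatases and feedback genes 1 rose, Dusp5 at 0.93 ± 0.26, and 2 fell, Dusp2 by -1.48 ± 0.26 and Dusp10 by -0.997 ± 0.118. Of 18 MAP kinase cascade genes 3 rose and 2 fell, led by the kinase gene Map3k8 at 2.56 ± 0.24, with Elk3, an SRF partner, at -0.86 ± 0.15, Mapk14 at -0.83 ± 0.11 (not called with the mean of its probe sets) and Mapk9, the gene of JNK2, at 0.66 ± 0.14. Of 18 genes induced by the T cell receptor 1 rose, Icos at 1.09 ± 0.14, and 2 fell, with Cd5, a brake on receptor signalling, at -1.63 ± 0.11 and Cd44 at -0.82 ± 0.22. Among 21 heat shock and dissociation stress genes 1 rose and 1 fell, Gadd45g at 3.91 ± 0.41 and Txnip at -0.42 ± 0.12. The calls of Csrnp1 and Cd44 were lost without any WT medium array or the WT IL-6 array 2 or 3, that of Dusp5 without any WT medium or IL-6 array, and that of Txnip without the WT medium array 1 or 2 or the WT IL-6 array 2 or 3 (adjusted p from 0.0550 to 0.209). The median change over these 6 lists lay between -0.31 and 0.10, against -0.01 for all probe sets.

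IL-27 in WT cells raised 2 of the 13 other AP-1 and ATF genes, Batf by 0.87 ± 0.14 (SE, adjusted p = 0.000672, limma) and Crem by 0.62 ± 0.14, and 2 of the 33 immediate early genes, Irf1 by 2.76 ± 0.09 and the survival gene Mcl1 by 0.72 ± 0.13. Of all probe sets 3.05% were called there, 1.98% higher and 1.06% lower. The Crem call was lost without the WT medium array 1 or 2 or the WT IL-27 array 2 or 3 (adjusted p from 0.0677 to 0.115). No MAP kinase phosphatase was called by limma (0 of 12, 2 at an unadjusted p under 0.05). In STAT3-deficient cells IL-6 changed 0 of the 13 AP-1 and ATF genes (2 at an unadjusted p under 0.05) and 1 of the 33 immediate early genes, Irf1 by 1.83 ± 0.09. IL-27 changed Irf1 by 2.68 ± 0.09 there, again the only 1 of the 33. It also raised 1 of the 13 AP-1 and ATF genes (7 at an unadjusted p under 0.05 in limma). This was Mafk, at 0.72, with the call lost in 20 of 35 settings. Of 18 MAP kinase cascade genes 1 rose with IL-27 there, and of 18 genes induced by the T cell receptor 2 rose and 2 fell. Of all probe sets 1.43% were called with IL-6 and 3.61% with IL-27 in STAT3-deficient cells. Some counts are near these shares, and no list was tested as a set. Each of these comparisons uses the medium arrays of its genotype as controls for both cytokines, so the IL-6 and IL-27 values are not independent of each other.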

How the data were processed

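The authors deposited 1 signal intensity per probe set and array on a linear scale, made with GCOS per the submitters' processing notes (version and algorithm not stated there), and each array had a trimmed mean of 500. Per the labels' protocols, RNA was amplified and biotin-labelled before hybridisation. Whether RNA input or amplification added to the spread was not tested. No arrays were identical. Of 45101 probe sets, 64 were controls, 34945 had 1 gene symbol, 932 several and 9160 none. From the deposited intensities, log2(signal + 32) was quantile-normalised, and the 26860 probe sets above their array's median on at least 3 arrays were kept, so a gene high in 1 group only was also kept. The added constant understates changes of dim probe sets. A limma model (version 3.58.1, R 4.3.3) with a mean-variance trend was fitted to all 18 arrays with 6 group means (12 residual and 6.39 prior degrees of freedom) for 12 comparisons, with Benjamini-Hochberg adjustment over all kept probe sets. The scripts were tested on simulated data. The 10 genes and all gene lists were chosen with earlier results of these data known. Beside the 10, the text names Stat3, up to 4 called genes of each list and comparison with the largest changes, some comparisons being left out, and the 5 genes whose deviations were most like theirs; genes of high spread were named after their values were seen. Alternatives covered scaling, the constant, the filter, probe set averaging, the variance model, marker covariates, array number as a block and leaving out arrays.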

Additional observations from a re-analysis of the deposited data

Results flagged for a closer look

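The effect of IL-6 differed between STAT3-deficient and WT cells by the interaction term of the limma model for 12 genes among the 10 and the 6 lists of related pathways. The marker lists and the STAT3 response controls, which hold further called genes, are not part of this count. The 6 lists held 13, 33, 12, 18, 21 and 18 tested genes. Of these, 6 are in both the immediate early and the T cell receptor list. Of all probe sets 2.2% were called for this term, 1.24% higher and 0.957% lower. Each value below is the log2 change with IL-6 in STAT3-deficient cells minus that in WT cells, with its SE and adjusted p. Among the 10 immediate early genes these were Junb at -1.24 ± 0.19 (0.000702) and Jund at -0.80 ± 0.13 (0.00186, and -0.51 with 0.270 under median centring).

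Of genes that rose with IL-6 in WT cells, the difference was -1.81 ± 0.20 (2.84e-05) for Batf, -2.29 ± 0.34 (0.000580) for Map3k8 and -3.03 ± 0.58 (0.00667) for Gadd45g. For Zfp36 it was -1.60 ± 0.38 (0.0289), lost without the WT medium array 1 or 2, the WT IL-6 array 2 or 3, the STAT3-deficient medium array 3 or the STAT3-deficient IL-6 array 1 or 2, with adjusted p between 0.0580 and 0.0947. For Pim1, a kinase gene, it was -0.80 ± 0.17 (0.0134), lost with median centring (0.370), with the mean of its probe sets (0.164) and with no variance trend (0.0654).

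Of these 12, the difference was positive for 5. It was 1.13 ± 0.15 (0.000262) for Cd5, 0.96 ± 0.17 (0.00285) for Dusp10 and 0.80 ± 0.13 (0.00184) for Irf1, which rose with IL-6 in both genotypes. For Klf6, a zinc finger factor, it was 0.64 ± 0.15 (0.0216), lost in 9 of 35 settings, among them without the WT medium array 1 or 2, the WT IL-6 array 3, the STAT3-deficient medium array 1 or the STAT3-deficient IL-6 array 2 or 3. For Mapk14, the gene of p38 alpha, it was 0.69 ± 0.16 (0.0205), lost in 7 settings, among them without the WT medium array 2, the WT IL-6 array 1 or 3, the STAT3-deficient medium array 1 or the STAT3-deficient IL-6 array 1. No group had more than 3 arrays, so single arrays were not tested as outliers.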

How the results depend on the processing

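Of 20 called changes of the 10 genes, 7 kept direction and call in every setting that gave them a value (35, or 33 for the second Jun probe set): Junb and Jund with IL-6 and for IL-27 against IL-6 in WT cells, the second Jun probe set with IL-27 in both genotypes, and the Junb difference in IL-6 effect. Another 11 lost the call without a change of sign in at least 1 setting. The sign changed in at least 1 setting for 6, all between genotypes, and some results are in both counts. The causes were not tested. Under median centring Jund stood at -0.25 in medium, -0.12 with IL-27 and -0.38 over all conditions, the last called in that direction (adjusted p = 0.000539, limma). With the marker covariate it was 0.14 with IL-6, and over all conditions Junb was 0.43 and the second Jun probe set 0.18. Counts of called genes follow, some with the share of all probe sets called under the same setting. Those without the STAT3-deficient arrays numbered 3 are a description, since these arrays were chosen on the same genes. For STAT3-deficient against WT in medium (1 gene) the count was 2 on the deposited scaling (35.5% of all), 5 with median centring (42.4%), 3 when the STAT3-deficient arrays numbered 3 were left out (24.2%) and 9 with the covariate (2.71%). With IL-6 (2 genes) it was 4 with median centring (25.4%), 1 with no filter (10.9%), 1 with no variance trend (18.6%), 1 with only the arrays compared (16.9%), 4 without the arrays numbered 3 (18.1%) and 7 with the covariate (2.92%). With IL-27 (1 gene) it was 0 on the deposited scaling, with no trend, with only the arrays compared and with the arrays numbered 3 left out (8.50 to 18.5% of all), and 7 with the covariate (1.65%). Over all conditions (3 genes) it was 7 with median centring (53.8%) and 7 with the covariate (2.80%). The B cell part of this covariate does not overlap between genotypes. A genotype difference fitted with it is therefore extrapolated, and these counts cannot be read as an effect of genotype. For IL-27 in WT cells (1 gene) it was 0 with median centring or no trend and 2 with the mean of all probe sets, only the arrays compared, without the arrays numbered 3 or the covariate. For IL-27 in STAT3-deficient cells (0 genes) it was 1 with median centring, the mean of probe sets, array weights or the covariate, and 2 without the arrays numbered 3. For IL-27 against IL-6 there (0 genes) it was 1 with the covariate and 1 without those arrays. For the difference in IL-6 effect (2 genes) it was 1 with median centring. With the main settings 3.05% of all probe sets were called for IL-27 in WT and 3.61% in STAT3-deficient cells. For IL-27 against IL-6 in STAT3-deficient cells it was 0.205%, and for the difference in IL-6 effect 2.2%. Shares under these alternatives are not given here for these comparisons or for single arrays left out. Those counts are thus not set against all probe sets and are not read as results about the 10 genes. Leaving out 1 array gave 0 to 1 genes for IL-27 in either genotype, 2 to 3 for IL-27 against IL-6 in WT, 1 to 3 between genotypes with IL-6, 0 to 1 with IL-27 and 2 to 3 over all conditions. The IL-6 count in WT cells stayed at 3.

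The array numbers have no stated meaning, and 10 of 18 correlations between same-numbered arrays of a genotype were over 0.1 (range -0.15 to 0.34), so they were not taken as pairs; 9 of 18 arrays correlated best with their own number. With the number as a replicate block within genotype, the median spread of the 10 genes fell from 0.47 to 0.13 and that of Fos from 0.85 to 0.13. This block called 6 genes with IL-6 in WT (8.15% of all probe sets, against 6.19% without it), adding Fos at 0.35 (adjusted p = 0.0451), Nr4a1 at -0.34 (0.0336) and Dusp1 at -0.48 (0.0117), which therefore have a call that depends on the block. It called 2 with IL-27 in WT (4.49%), 1 with IL-6 (1.76%) and 2 with IL-27 (5.08%) in STAT3-deficient cells, and 1 for IL-27 against IL-6 there (0.346%). A replicate block across genotypes called 1 gene with IL-27 in STAT3-deficient cells (4.43%) and 2 between genotypes in medium (26.8%), and a random replicate block called 1 with IL-27 in STAT3-deficient cells (4.38%).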
